A study of Mus musculus with 12 samples.

Results

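Nonmuscle myosin II was examined through 10 genes of the motor and of the enzymes that switch it: the heavy chains Myh9, Myh10 and Myh14, the light chains Myl6, Myl9, Myl12a and Myl12b, the kinase Mylk, and the phosphatase subunits Ppp1r12a and Ppp1r12b. The genes were chosen by symbol from knowledge of the pathway, with earlier results of these data known, and mapped to Ensembl identifiers. They are 10 of 33560 genes with counts. All 10 had counts above 0 in every library, and all 10 passed the filter on low counts that left 15443 genes for testing. Poly(A) RNA was sequenced from 12 libraries of mouse neurons grown from embryonic stem cells and labelled as glutamatergic neurons at day 21 in culture. They were either wild type (WT) or lacked a microexon of Daam1, the gene of an actin-nucleating formin (Daam1-MIC KO), and both genotypes received, for 2 h, either water as vehicle or Y-27632, an inhibitor of the kinase ROCK, at 10 µM. The labels name 6 cell lines, 3 WT and 3 KO, and each line gave 1 vehicle and 1 inhibitor library, so that every group held 3 libraries, numbered here by their line. The design text of the series names hippocampus of adult mice, but each sample is labelled as cultured neurons, and the sample labels were followed.

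As background, nonmuscle myosin II is the motor that pulls on actin filaments in nearly every cell. Each molecule joins a pair of heavy chains, which carry the motor and the tail that assembles into filaments, with essential light chains (Myl6) and regulatory light chains (Myl9, Myl12a, Myl12b). Phosphorylation of the regulatory light chain turns the motor on: myosin light chain kinase (Mylk) and ROCK add the phosphate, and myosin phosphatase, guided to myosin by Ppp1r12a or Ppp1r12b, removes it. ROCK also phosphorylates the phosphatase subunit and lowers its activity, and Y-27632 blocks ROCK. In neurons the motor acts in growth cones and dendritic spines, and nonmuscle myosin IIB, the product of Myh10, is known as the predominant form in brain. These are changes of protein state, and the data here are RNA levels.

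Levels are given on 2 scales. CPM is the count scaled to library size with TMM factors, for comparing libraries, and cRPKM, the authors' deposited length-scaled value, is for comparing genes. The libraries held 23253566 to 35012561 counts. KO inhibitor library 3 stood apart from the other 11 over all tested genes: its median Pearson's r with the others was 0.854, against 0.953 or more for each of the rest. The 7 pan-neuronal markers summed to 1495 CPM in it and to between 4697 and 6568 CPM in the other 11. WT vehicle library 2 and WT inhibitor library 3 came next on the first principal component on its positive side (68.1 and 60.3, against 162.9 for KO inhibitor library 3, with the other 9 between -73.8 and 1.4). Those WT libraries, which differ in line and treatment, were each other's nearest library (Pearson's r of 0.985), and whether libraries were exchanged could not be checked from gene counts. The label of the cells was checked against markers. In the glutamatergic list, the vesicular glutamate transporter Slc17a6 ran from 51.7 to 423 CPM, Grin1 from 116 to 593 and Camk2a from 32.8 to 64.9. Slc17a7 did not exceed 2.04 CPM, Tbr1 2.07, Neurod6 1.39 and Neurod2 0.562. Among the GABAergic markers, Gad1 ran from 86.7 to 259 CPM, Gad2 from 70.4 to 227 and Slc32a1 from 52.2 to 206. Dlx1 and Dlx2 did not exceed 1.11 and 0.509 CPM. Some markers of inhibitory neurons were therefore present too. Daam1 itself, whose gene-level count cannot show the loss of a microexon, had a log2 difference between KO and WT of -0.0092 ± 0.30 (SE) in vehicle and -0.15 ± 0.30 in inhibitor. In bulk RNA, fewer cells of a type and less RNA per cell cannot be told apart.

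The regions upstream of 3 genes whose levels ran together across the libraries (Myh9, Myl12a and Myl9) are shown first, because their levels spanned the widest range among the 10 genes. Each is the part of the 250 bases before the RefSeq start (GRCm38.p6) that lies outside annotated exons, written 5′ to 3′ on the strand of the gene. Capitals mark matches on either strand to 5 motifs: the CArG box bound by serum response factor, the MCAT motif CATTCC bound by TEAD factors, the TATAAA element, the GC box with the core GGGCGG, and the box with the core CCAAT.
Myl9, chr2:156775214-156775419, plus strand: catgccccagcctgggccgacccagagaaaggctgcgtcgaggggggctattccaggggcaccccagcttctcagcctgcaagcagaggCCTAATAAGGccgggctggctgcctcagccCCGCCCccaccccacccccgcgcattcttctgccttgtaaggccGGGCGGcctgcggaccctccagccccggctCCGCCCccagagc
Myl12a, chr17:71002555-71002632, minus strand: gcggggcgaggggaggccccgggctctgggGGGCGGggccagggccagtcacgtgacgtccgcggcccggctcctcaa
Myh9, chr15:77842176-77842425, minus strand: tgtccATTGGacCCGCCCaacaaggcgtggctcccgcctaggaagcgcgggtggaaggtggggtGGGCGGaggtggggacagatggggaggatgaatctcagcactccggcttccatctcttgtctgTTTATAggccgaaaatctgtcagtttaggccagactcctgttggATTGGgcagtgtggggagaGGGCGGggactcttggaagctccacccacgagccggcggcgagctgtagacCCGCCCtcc
Of these 3 windows, the one of Myl9 held a CArG box, whose first base lay at -161 from the start. Over the whole window of 300 bases, a CArG box was found in 1.63% of 32851 mouse promoters. Among the promoters of the 10 genes the other match was at -50 in 1 of the 2 starts of Myl6. GGGCGG occurred in all 3 windows shown and in 35.7% of all promoters, while CCAAT, found in 37.4% of all promoters, occurred in that of Myh9. These matches describe letters in a window and say nothing of binding.

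The 10 genes spanned a wide range of levels. Myl6, the essential light chain, was highest at 380 ± 133 cRPKM (mean ± SD over 12 libraries), and Myl12b, a regulatory light chain, followed at 114 ± 5.33. Myh10 stood at 46.4 ± 10.3, Myh9 at 18.1 ± 25.3, Myl12a at 15.3 ± 24.1, Ppp1r12a at 12.5 ± 2.88 and Ppp1r12b at 7.85 ± 1.67. Myl9 (4.98 ± 7.36), Myh14 (1.15 ± 0.304) and Mylk (0.297 ± 0.145) were the lowest. The first places did not vary: Myl6 lay above Myl12b, and Myl12b above Myh10, in 12 of 12 libraries. Mylk lay below Myh14 in 12 of 12. Myh9 lay above Myl12a, and Ppp1r12a above Ppp1r12b, in 12 of 12 as well, and Myh10 lay above Myh9 in 11 of 12. The other neighbours changed places: Myl12a exceeded Ppp1r12a in 3 of 12 libraries, Ppp1r12b exceeded Myl9 in 10 of 12, and Myl9 exceeded Myh14 in 7 of 12. By mean cRPKM, Myl6 ranked above 99.4% of the genes tested and Mylk above 7.76%.

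**Figure D1:**
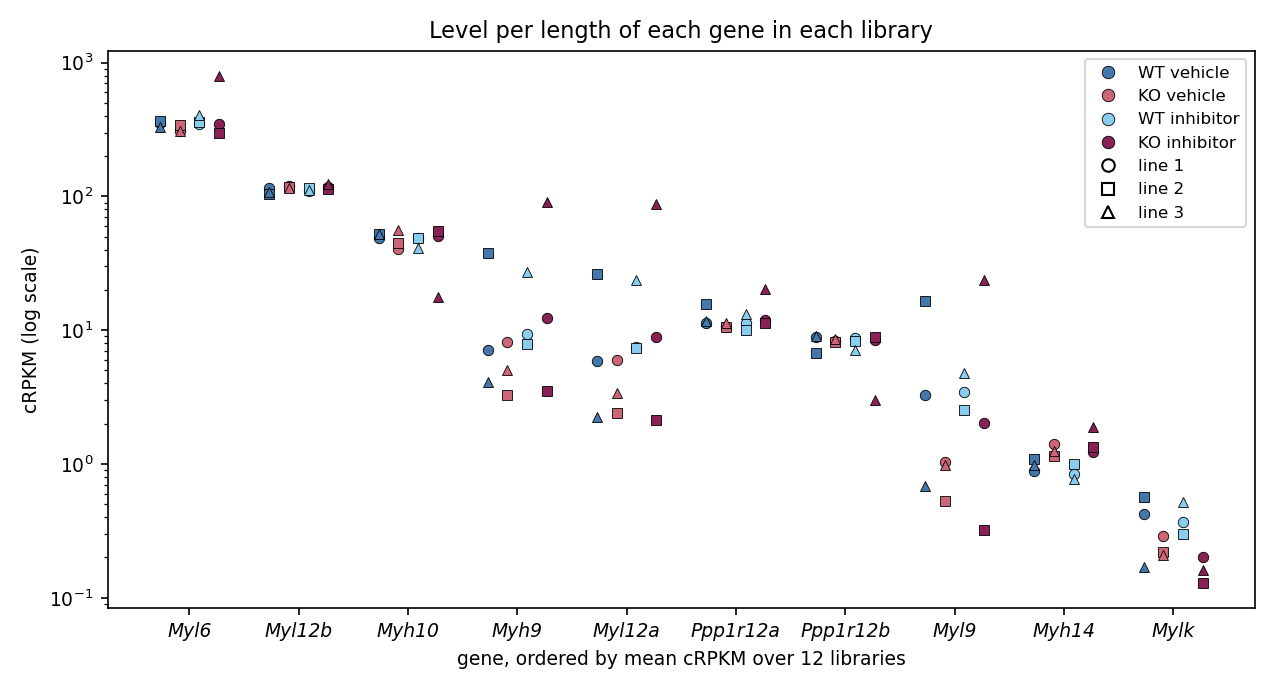
Level of each gene in each library as cRPKM on a log axis, with genes ordered by their mean over 12 libraries; colours give the 4 groups and symbols the number of the cell line. Myl12b forms a tight cluster between 105 and 123 cRPKM, while Myh9, Myl12a and Myl9 are spread widely, with KO inhibitor library 3 at the top of each.

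Myh9 encodes the heavy chain of nonmuscle myosin IIA, the form best known from platelets, fibroblasts and other migrating cells (ENSMUSG00000022443, chromosome 15, 77760587 to 77842175, minus strand; all gene positions are those of GENCODE M21 on GRCm38). It was at 50.1, 280 and 29.2 CPM in WT vehicle, 60.3, 23.9 and 37.5 CPM in KO vehicle, 67.3, 58.1 and 198 CPM in WT inhibitor, and 89.4, 25.9 and 623 CPM in KO inhibitor libraries, each for lines 1 to 3. The high values were the 3 libraries that also lay highest on the first principal component, and the groups overlapped in every comparison. The highest library exceeded the lowest 26-fold, and 11.7-fold without KO inhibitor library 3. Its spread on the log2 scale, 4.70, was wider than that of 94.4% of the genes tested.

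Myh10 encodes the heavy chain of nonmuscle myosin IIB (ENSMUSG00000020900, chromosome 11, 68691559 to 68816632, plus strand). It was at 364, 411 and 387 CPM in WT vehicle, 317, 340 and 435 CPM in KO vehicle, 369, 375 and 315 CPM in WT inhibitor, and 383, 421 and 126 CPM in KO inhibitor libraries. KO inhibitor library 3 was low, and the other 11 differed by at most 1.38-fold. The annotation holds an internal coding exon of 30 nt in Myh10, carried by 1 of the 5 transcripts that span it, and a count per gene cannot show its use. The same holds for short exons of Myh14 (24 nt, 1 of 4 transcripts), Myl6 (28 nt, 10 of 14), Ppp1r12a (17 nt, 4 of 5) and Ppp1r12b (17 nt, 4 of 6).

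Myh14 encodes the heavy chain of nonmuscle myosin IIC (ENSMUSG00000030739, chromosome 7, 44605803 to 44670843, minus strand). It was at 5.54, 7.08 and 6.13 CPM in WT vehicle, 9.22, 7.31 and 8.15 CPM in KO vehicle, 5.35, 6.44 and 4.92 CPM in WT inhibitor, and 7.75, 8.70 and 11.3 CPM in KO inhibitor libraries. These values rest on 149 to 354 counts per library. All 6 KO libraries (7.31 to 11.3 CPM) lay above all 6 WT libraries (4.92 to 7.08 CPM). Over all 15443 genes tested, 122 (0.79%) showed such a separation of the 6 KO from the 6 WT libraries, 44 higher and 78 lower in KO, and Myh14 was the only one of the 10 genes that did. Some neuronal markers were also apart between genotypes in vehicle. The GABAergic markers summed to 569 to 648 CPM in KO and 453 to 488 CPM in WT libraries, and the pan-neuronal markers to 6213 to 6568 and 4697 to 6029 CPM. The glutamatergic markers overlapped, at 850 to 1057 CPM in KO and 753 to 858 CPM in WT libraries. In inhibitor the KO libraries of lines 1 and 2 lay above all WT libraries in each of these sums. KO inhibitor library 3, with the highest Myh14, had the lowest of each (211, 1495 and 211 CPM). The part of these cells in the Myh14 difference was not tested. The groups were also apart in cRPKM, from 0.89 to 1.08 in WT vehicle against 1.14 to 1.41 in KO vehicle, and from 0.77 to 1 in WT inhibitor against 1.22 to 1.88 in KO inhibitor. The annotation places an antisense gene across 60 exonic bases of Myh14, and whether the counting used the strand is not given in the sources used here.

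Compared per length, Myh10 was the main heavy chain transcript in 11 of 12 libraries. Its share of the summed cRPKM of the 3 heavy chains ran from 57.6% to 91.8% in these 11, and was 15.8% in KO inhibitor library 3. Myh9 made up 82.5% of heavy chain cRPKM in that library and from 5.92% to 41.2% in the others, with 41.2% in WT vehicle library 2 and 39.4% in WT inhibitor library 3. Myh14 never exceeded 2.81%. Its share was 1.49% ± 0.273 in WT vehicle and 2.38% ± 0.408 in KO vehicle, and 1.42% ± 0.309 and 1.95% ± 0.288 in inhibitor (SD, n = 3 each). The WT and KO shares were apart in vehicle and overlapped in inhibitor.

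Myl6, the essential light chain (ENSMUSG00000090841, chromosome 10, 128490860 to 128494145, minus strand), was at 204, 226 and 192 CPM in WT vehicle and at 190, 206 and 187 CPM in KO vehicle libraries. In inhibitor it was at 204, 215 and 243 CPM in WT and at 204, 181 and 445 CPM in KO libraries. KO inhibitor library 3 was again the high one, and without it the highest library exceeded the lowest 1.34-fold.

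Myl9 encodes the regulatory light chain best known from smooth muscle (ENSMUSG00000067818, chromosome 2, 156775420 to 156781658, plus strand). It was at 3.37, 17.9 and 0.718 CPM in WT vehicle, 1.13, 0.562 and 1.06 CPM in KO vehicle, 3.65, 2.69 and 5.09 CPM in WT inhibitor, and 2.12, 0.347 and 23.8 CPM in KO inhibitor libraries, from 12 to 748 counts. The highest library exceeded the lowest 68.6-fold, and 51.5-fold without KO inhibitor library 3. Myl9 had the widest spread of the 10 genes.

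Myl12a and Myl12b encode near-identical regulatory light chains and are neighbours on the minus strand of chromosome 17 (Myl12a, ENSMUSG00000024048, 70993656 to 71002878; Myl12b, ENSMUSG00000034868, 70973133 to 70990890). Myl12a was at 8.46, 40.4 and 3.23 CPM in WT vehicle, 9.07, 3.55 and 5.14 CPM in KO vehicle, 11, 11 and 35.2 CPM in WT inhibitor, and 13.2, 3.18 and 122 CPM in KO inhibitor libraries. Myl12b was at 89.1, 85.2 and 82.9 CPM in WT vehicle, 96.6, 93 and 92.2 CPM in KO vehicle, 85.2, 92.8 and 88.1 CPM in WT inhibitor, and 91.8, 90.7 and 91.5 CPM in KO inhibitor libraries. The neighbours differed in spread: Myl12a spanned 38.4-fold, and Myl12b 1.17-fold. The log2 spread of Myl12b, 0.22, was narrower than that of all but 1.15% of the genes tested. Of the sequences of 50 bases in their transcripts, 5.65% of those of Myl12a and 7.07% of those of Myl12b occur in the other gene, and how the counting treated reads from these stretches is not given in the sources used here. The annotation also holds a second protein-coding gene named Myl12b on the same strand, which shares 739 of the 2770 exonic bases of Myl12b and 462 of the 3360 of Myl12a, so both values are uncertain to that extent. Myl12a also overlaps Myom1 on the opposite strand over 207 exonic bases.

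As a share of the summed cRPKM of the 3 regulatory light chains, Myl12b held 71% to 97.9% in 11 libraries and 52.5% in KO inhibitor library 3, where Myl12a held 37.3% and Myl9 10.2%. Of the summed CPM in that library Myl12a held 51.4% and Myl12b 38.6%, so their order there turned with the scale. The lowest Myl12b shares among the others were 71% in WT vehicle library 2 and 79.6% in WT inhibitor library 3. These were the same libraries in which Myh9 took its largest shares of the heavy chains.

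**Figure D2:**
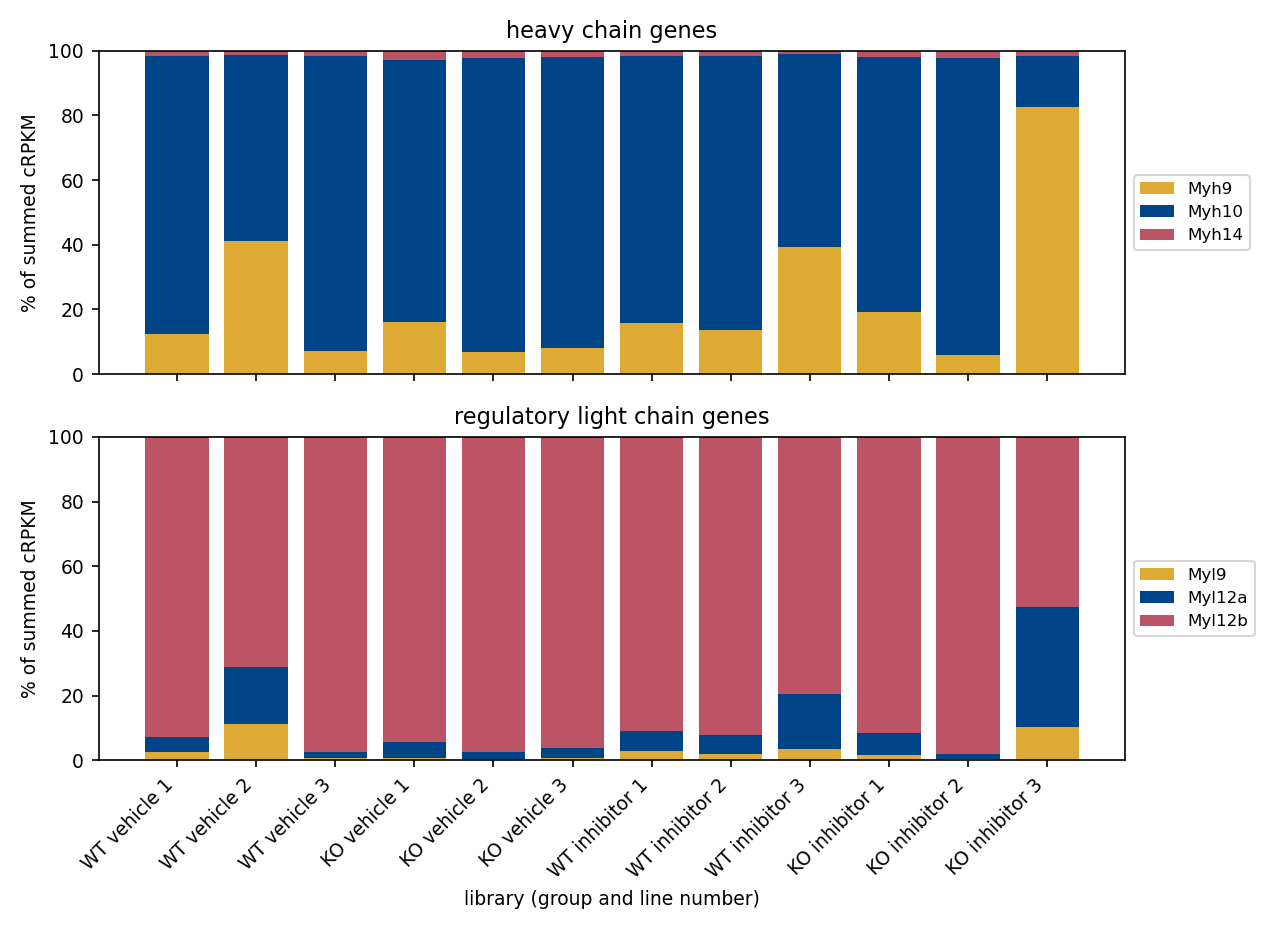
Share of each gene in the summed cRPKM of the 3 heavy chains (upper panel) and of the 3 regulatory light chains (lower panel), 1 bar per library, with each bar adding to 100%. Myh9 makes up 82.5% and Myl12b 52.5% in KO inhibitor library 3, and WT vehicle library 2 and WT inhibitor library 3 lie between it and the rest.

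Mylk encodes myosin light chain kinase (ENSMUSG00000022836, chromosome 16, 34745210 to 35002420, plus strand). It was at 3.16, 4.59 and 1.31 CPM in WT vehicle, 2.30, 1.73 and 1.65 CPM in KO vehicle, 2.86, 2.40 and 4.06 CPM in WT inhibitor, and 1.56, 1.04 and 1.21 CPM in KO inhibitor libraries, from 36 to 123 counts. All 3 KO inhibitor libraries lay below all 3 WT inhibitor libraries, and 10.5% of all genes tested were apart, in either direction, in that comparison. In vehicle, by contrast, the WT library of line 3 was the lowest of the 6. Unlike Myl9, Mylk was not high in KO inhibitor library 3. Antisense genes overlap 548 and 224 of its 11263 exonic bases. The other light chain kinases of the family, Mylk2, Mylk3 and Mylk4, reached at most 0.0979, 0.286 and 0.0991 CPM and did not pass the filter on low counts.

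Ppp1r12a encodes the main targeting subunit of myosin phosphatase (ENSMUSG00000019907, chromosome 10, 108162193 to 108284475, plus strand), and Ppp1r12b a related one that is abundant in heart and brain (ENSMUSG00000073557, chromosome 1, 134754658 to 134955942, minus strand). Ppp1r12a was at 36.4, 53.5 and 38.3 CPM in WT vehicle, 36.2, 35 and 38.6 CPM in KO vehicle, 37.1, 33.7 and 44.2 CPM in WT inhibitor, and 39.1, 38.1 and 63.2 CPM in KO inhibitor libraries. Ppp1r12b was at 76.6, 61.4 and 78.1 CPM in WT vehicle, 75.1, 72.1 and 77 CPM in KO vehicle, 75.9, 74.2 and 63 CPM in WT inhibitor, and 73.9, 78.4 and 25.1 CPM in KO inhibitor libraries. An antisense gene overlaps 710 of the 14983 exonic bases of Ppp1r12b, and its value is uncertain to that extent if counting ignored strand. The same 3 libraries were the high ones for Ppp1r12a and the low ones for Ppp1r12b. In KO inhibitor library 3, Ppp1r12a made up 87% of their summed cRPKM, and in the other 11 it made up 54.7% to 69.9%. The order of this pair depended on the scale: of their summed CPM, which is not scaled to length, Ppp1r12a made up 31.2% to 46.6% in those 11 and 71.6% in KO inhibitor library 3.

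Several of the genes ran together across libraries (log2 CPM, Pearson's r over 12 libraries of 6 cell lines, given as a description). The genes of a pair were measured in the same libraries and so share their cultures and depth. Myh9 followed Myl12a with r = 0.99 and Myl9 with r = 0.94, and these were 0.99 and 0.91 without KO inhibitor library 3. Ppp1r12b ran against Myh9 (r = -0.80, and -0.85 without that library). The relation of Myh10 to Myh9 rested on that library: r was -0.68 with it and -0.19 without it. Mylk followed Myl9 with r = 0.49 over 12 libraries and 0.91 over the 11 others.

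**Figure D3:**
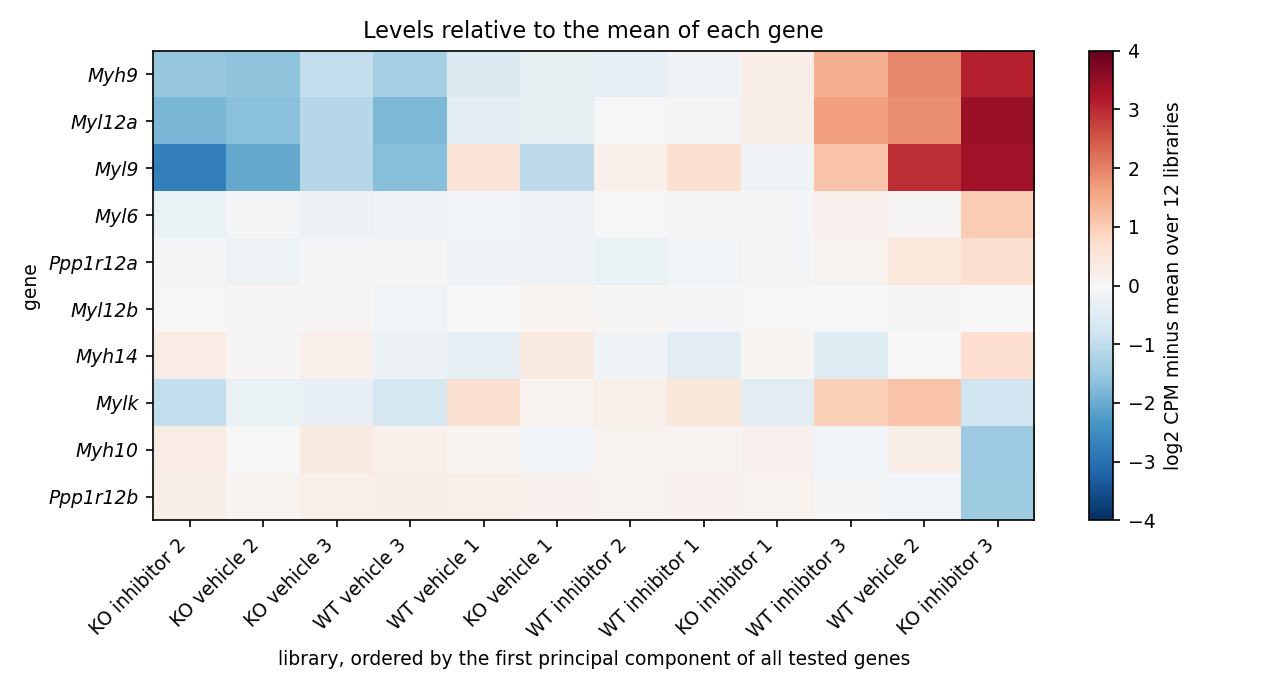
Log2 CPM of each gene minus its own mean over the 12 libraries, with libraries ordered by the first principal component of all tested genes and a colour scale from -4 to 4. Myh9, Myl12a and Myl9 run from low on the left to high on the right, Myl12b shows no colour, and Mylk is high in WT vehicle library 2 and WT inhibitor library 3 but low in KO inhibitor library 3.

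Among all genes tested, the closest in pattern to Myh9 were Susd6 (r = 0.998) and Cmtm6 (r = 0.996), and the closest to Myl12a were Ezr (r = 0.996) and Pbxip1 (r = 0.995). Myl9 was closest to Casq2 (r = 0.986) and Ccdc80 (r = 0.984). Mylk was closest to the collagen genes Col6a6 (r = 0.924) and Col18a1 (r = 0.922), and Myh10 to Arhgap35 and Celsr2 (r = 0.996 each). Ppp1r12b was closest to Zdhhc2 (r = 0.998) and Sgip1 (r = 0.997), Ppp1r12a to Ficd (r = 0.987) and Ifnar1 (r = 0.986), and Myl6 to Arfgap1 (r = 0.989) and Ech1 (r = 0.988). The genes nearest to Myh14 (Tom1, r = 0.916, and Golph3l, r = 0.910) and Myl12b (Cckar, r = 0.869, and Zfp706, r = 0.860) had the lowest r, those of Myh14 close to those of Mylk. This order rested in part on KO inhibitor library 3. Without it r was 0.869 and 0.861 for Myh14, 0.913 and 0.893 for Myl12b, and 0.922 and 0.906 for Myl6. Each pair was picked as the highest of all genes.

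Some markers of other cells moved with the same libraries. The 11 smooth muscle contractile markers summed to 760 CPM in KO inhibitor library 3, 473 CPM in WT vehicle library 2 and 369 CPM in WT inhibitor library 3, against 89 to 185 CPM in the other 9. In KO inhibitor library 3 this sum was mostly Tpm1 (351 CPM) and Cald1 (312 CPM), which are not limited to smooth muscle; Acta2 was at 20.6 CPM there, against a highest value of 55.9, and Myh11 was at its lowest of the 12 (0.0636 CPM). No marker of that list was at 0 in every library of a group, but Myh11, the smooth muscle heavy chain, did not exceed 1.01 CPM, and Cnn1 did not exceed 2.16 CPM. The 10 mesenchymal markers summed to 1950, 1234 and 1123 CPM in WT vehicle library 2, WT inhibitor library 3 and KO inhibitor library 3, and to 57.4 to 527 CPM in the others. In KO inhibitor library 3 this sum was made of Fn1 (540 CPM) and Pdgfra (509 CPM), with Col1a1 at 20.3 and Postn at 1.97 CPM. The 6 progenitor markers summed to 815 CPM in that library and to 43.9 to 306 CPM in the other 11. The 7 astrocyte markers summed to 1155 CPM there, against 536 to 850 CPM, but went both ways: Gfap (598 CPM) and Slc1a3 (272 CPM) were at their highest of the 12 libraries, and Slc1a2 (71.3 CPM) and Aldoc (124 CPM) at their lowest. The astrocyte sum was not high in WT vehicle library 2 (736 CPM) and was lowest of the 12 in WT inhibitor library 3 (536 CPM). The part of these cells in the levels of Myh9, Myl9, Myl12a and Mylk was not tested.

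KO and WT neurons were compared first in vehicle, to see what loss of the microexon did without inhibitor. None of the 10 genes was called by edgeR at an adjusted p below 0.05, and 0% of all genes tested were. Of the 10, 3 had a positive and 7 a negative log2 difference, with a median of -0.16, beside -0.01 over all genes tested. None of the 10, and 1.99% of all genes, had an unadjusted p below 0.05. In Myh14 and Myl12b every KO library lay above every WT library, and such a separation, in either direction, was seen in 12.5% of all genes tested. Myh14 differed by 0.40 ± 0.20 on the log2 scale (SE), from 6.25 ± 0.78 CPM in WT to 8.23 ± 0.956 CPM in KO (SD, n = 3 each), with an edgeR adjusted p of 0.999. Myl12b differed by 0.13 ± 0.078, from 85.7 ± 3.12 to 93.9 ± 2.34 CPM (edgeR adjusted p of 0.999). The most negative were Myl9 (-2.98 ± 1.43), Myh9 (-1.56 ± 1.15) and Myl12a (-1.55 ± 1.25), each with an edgeR adjusted p of 0.999 and each with overlapping libraries. Those of Myh9 and Myl12a rested on WT vehicle library 2: without it they were 0.028 and 0.015. That of Myl9 shrank to -1.15 ± 1.34 without that library.

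In inhibitor, KO against WT again gave 0 called genes of the 10 (0% of all genes), and 7 differences were positive and 3 negative, with a median of 0.31 beside -0.0005 over all genes. The edgeR adjusted p ran from 0.856 to 0.889. Myh14 had the smallest unadjusted p of the 10. WT libraries averaged 5.57 ± 0.78 CPM and KO libraries 9.23 ± 1.81 CPM, a log2 difference of 0.73 ± 0.20 (edgeR adjusted p of 0.856); it was 0.56 ± 0.18 without KO inhibitor library 3. Mylk averaged 3.11 ± 0.861 CPM in WT libraries and 1.27 ± 0.266 CPM in those of KO, a log2 difference of -1.29 ± 0.43 (edgeR adjusted p of 0.856), and -1.25 ± 0.49 without that library. Myh14 and Mylk were the 2 of 10 at an unadjusted p below 0.05, where 3.5% of all genes were, and also the 2 whose KO and WT libraries did not overlap, where 10.5% of all genes did not. Myl12a (1.27 ± 1.23), Myl9 (1.20 ± 1.32) and Myh9 (1.19 ± 1.14) had positive values that rested on KO inhibitor library 3: without it they were -1.22, -1.63 and -0.90.

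With the 2 libraries of each line added, 3 KO lines were set against 3 WT lines over 16090 genes. None of the 10 was called (0% of all genes), and 6 differences were positive and 4 negative, with a median of 0.10 beside 0.045 over all genes. Myh14 was at 8.89 CPM in KO and 5.86 CPM in WT lines, a log2 difference of 0.60 ± 0.16 (edgeR adjusted p of 0.998). Mylk was at 1.56 and 3.03 CPM, a log2 difference of -0.96 ± 0.23 (edgeR adjusted p of 0.998). DESeq2 on the same sums gave Mylk an adjusted p of 0.0529 and Myh14 one of 0.0778, with differences of -0.96 and 0.60, the nearest that any member came to the threshold in any fit made here. The lines did not overlap in Myh14 and Myl12b (higher in KO) and Mylk (lower), and in 8.97% of all genes. Myl12b differed by 0.11 ± 0.063. The other 7 genes had overlapping lines and differences between -0.12 (Myh10) and 0.66 (Myl12a). The mesenchymal markers, like Mylk, were mostly lower in KO, at 57.4 to 190 CPM in KO vehicle and 183 to 1950 CPM in WT vehicle libraries. In inhibitor they were at 125 to 1123 CPM in KO and 448 to 1234 CPM in WT libraries. Their part in the Mylk difference was not tested. Within the KO lines they came apart. From vehicle to inhibitor the marker sum rose from 118 to 210, 57.4 to 125 and 190 to 1123 CPM in lines 1, 2 and 3. Mylk differed there by -0.56, -0.73 and -0.45 on the log2 scale.

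**Figure D4:**
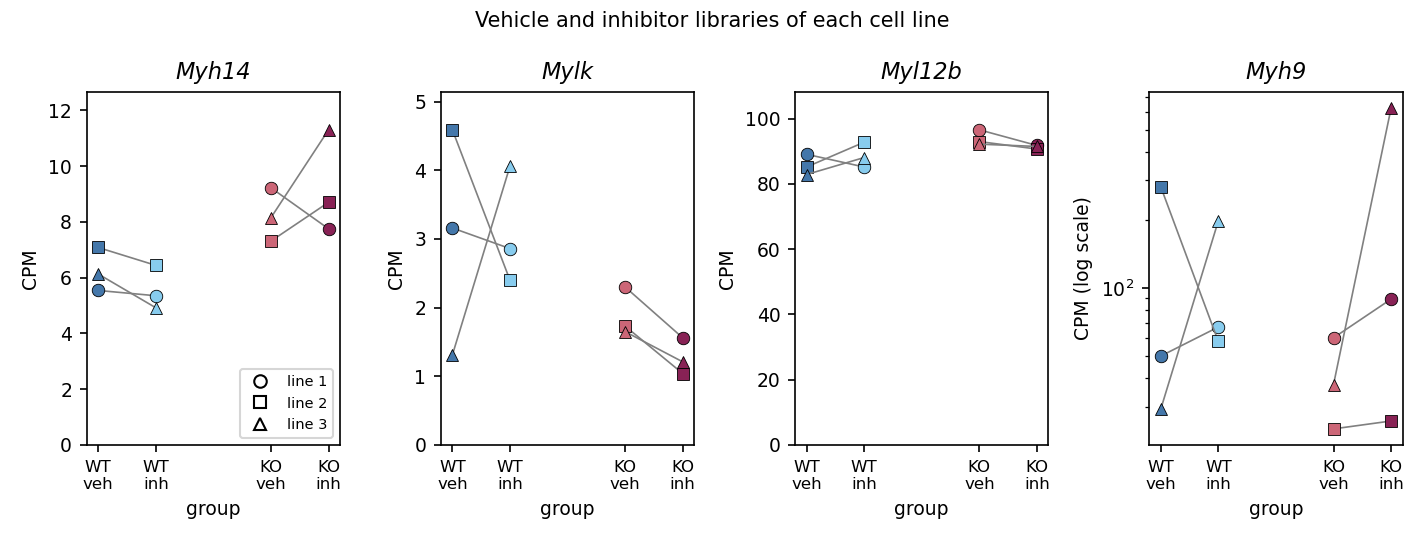
CPM of Myh14, Mylk, Myl12b (linear axes from 0) and Myh9 (log axis) in each library, with both libraries of each cell line joined in grey. The 6 KO points of Myh14 all lie above 7.08 CPM, the highest WT point, and the lines of Myh9 cross.

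Inhibitor and vehicle were then compared for each genotype. In WT neurons none of the 10 genes was called (0% of all genes), none had groups that did not overlap (5.97% of all genes did), and none was at an unadjusted p below 0.05. Differences ran from -0.94 ± 1.32 (Myl9) to 0.14 ± 1.21 (Myl12a), with a median of -0.078 beside 0.011 over all genes. Within lines the direction varied. From vehicle to inhibitor, Myh9 differed by 0.43, -2.27 and 2.76 on the log2 scale in WT lines 1, 2 and 3, and Myl12a by 0.37, -1.88 and 3.45. The opposite values of lines 2 and 3 rest on WT vehicle library 2 and WT inhibitor library 3, the pair nearest to each other across lines and treatments. Over the WT libraries Myh9 differed by 1.41 without the first of these and by -0.93 without the second, and Myl12a by 1.67 and -0.66. Myl12b differed by at most 0.12 in any of the 6 lines.

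In KO neurons none of the 10 was called (0% of all genes), and the median difference was 0.26 beside -0.018 over all genes. The largest were Myl9 (3.24 ± 1.44), Myl12a (2.96 ± 1.31) and Myh9 (2.60 ± 1.19), each with an edgeR adjusted p of 0.474. In KO lines 1, 2 and 3 Myl9 differed by 0.91, -0.70 and 4.49, Myl12a by 0.54, -0.16 and 4.57, and Myh9 by 0.57, 0.11 and 4.05, so line 3 carried the mean. Without its inhibitor library the differences were 0.42, 0.46 and 0.51. Myl9 and Myl12a were at an unadjusted p below 0.05, as were 7.05% of all genes. The libraries did not overlap in Mylk and Myl12b, both lower with inhibitor, and in 8.84% of all genes. Mylk was lower in all 3 KO lines, with log2 values of -0.56, -0.73 and -0.45, and its mean went from 1.89 ± 0.358 to 1.27 ± 0.266 CPM, a difference of -0.58 ± 0.42 (edgeR adjusted p of 0.517). For Myl12b the difference of -0.040 ± 0.078 changed sign under scaling by library totals (0.013).

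An interaction term tested whether WT and KO neurons differed in their response, and 0% of all genes and none of the 10 were called. Myl9 had an interaction of 4.18 ± 1.94, Myl12a of 2.82 ± 1.75 and Myh9 of 2.75 ± 1.62 on the log2 scale (edgeR adjusted p of 0.808 each). Without KO inhibitor library 3 they were 1.36, 0.32 and 0.66, and with the cell line as a block 1.48, 0.89 and 1.11. The interaction was 0.33 ± 0.29 for Myh14, and 0.17 without that library; it was -0.62 ± 0.59 for Mylk.

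**Figure D5:**
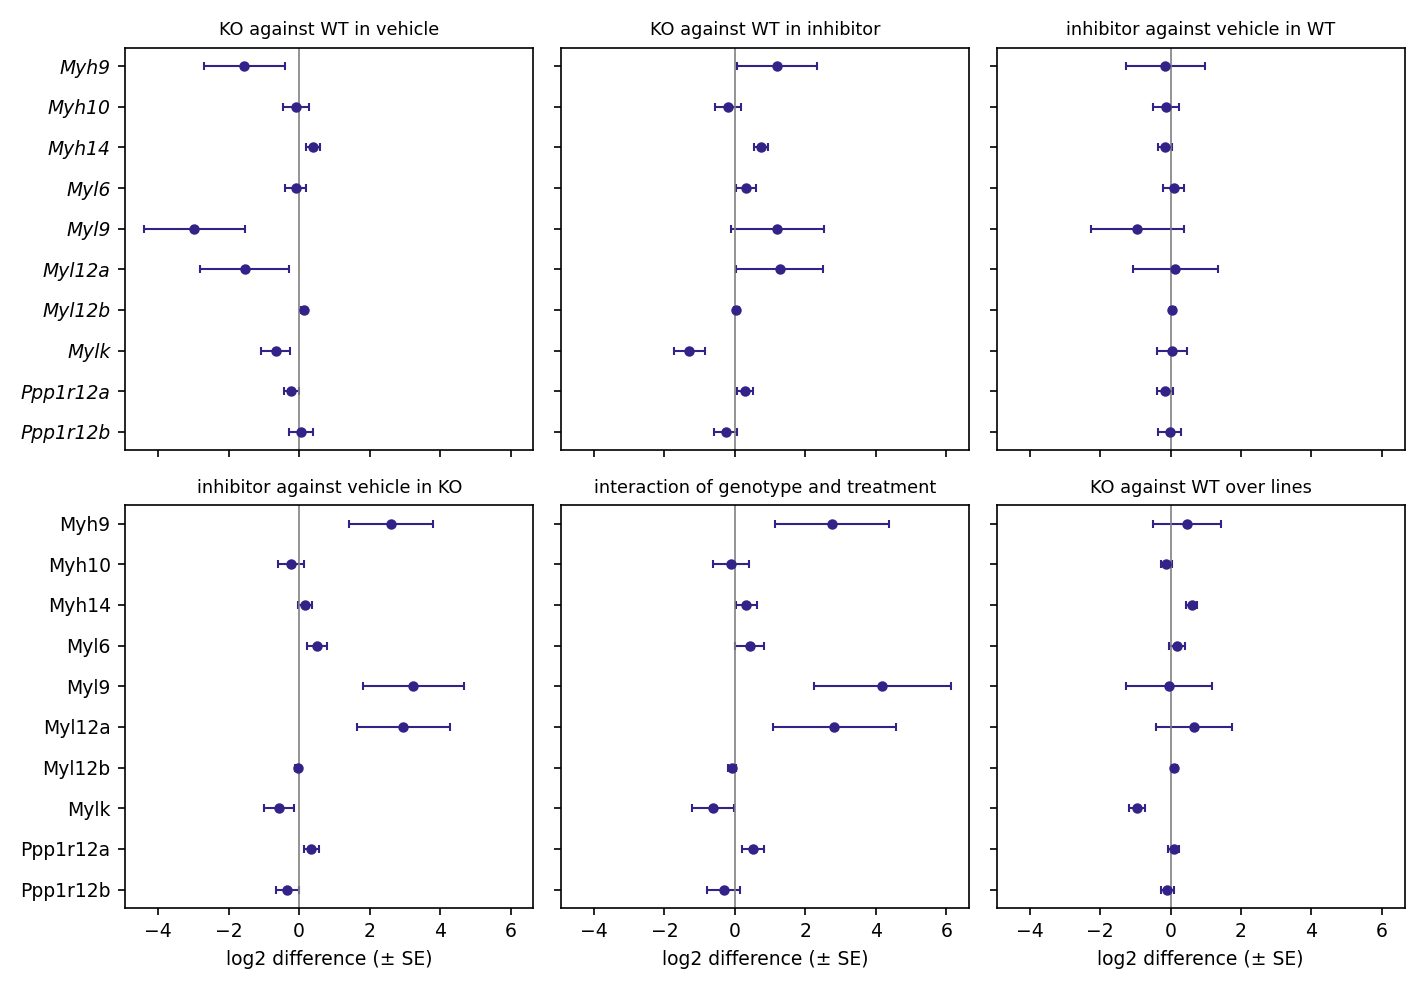
Log2 difference of each gene with its standard error (horizontal bars) in each of the 6 comparisons, from edgeR. The bars of Myh9, Myl9 and Myl12a are wide, and their values lie on opposite sides of 0 for KO against WT in vehicle and in inhibitor; those of Myl12b are narrow and near 0, and Myh14 lies on the positive side in each comparison of KO with WT.

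The 28 other genes of the pathway, of which 24 passed the filter on low counts, were counted in the same fits. None was called in any of the 6 comparisons. In KO against WT in vehicle 9 were positive and 15 negative (median of -0.07 beside -0.01 over all genes), and in inhibitor 11 and 13 (-0.014 beside -0.0005). For inhibitor against vehicle, WT neurons had 10 positive and 14 negative (-0.014 beside 0.011), and KO neurons 12 and 12 (0.043 beside -0.018). The interaction had 14 positive and 10 negative (0.091 beside -0.0097), and the comparison over lines 10 and 14 (-0.01 beside 0.045). The ROCK kinases themselves, the targets of the inhibitor, were at 21.3 ± 5.71 CPM (Rock1) and 95.7 ± 5.98 CPM (Rock2) in WT vehicle and at 18.4 ± 5.63 and 91.5 ± 4.42 CPM in KO vehicle libraries.

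The smallest unadjusted p of the list went to Svil, the actin- and myosin-binding supervillin, for KO against WT in vehicle (-1.09 ± 0.54 on the log2 scale, edgeR adjusted p of 0.999). Citron kinase (Cit), which acts on the light chain in dividing cells, had it in inhibitor (-0.42 ± 0.18, edgeR adjusted p of 0.856) and over lines (-0.34 ± 0.15, edgeR adjusted p of 0.998). Cit averaged 63.5 ± 3.24 CPM in WT and 51.5 ± 6.34 CPM in KO libraries in vehicle, and 61.3 ± 1.82 and 45.8 ± 12.2 CPM in inhibitor. For the inhibitor it was Myo18a in WT neurons (-0.13 ± 0.17, edgeR adjusted p of 1) and Ppp1r14b, of a family of phosphatase inhibitors, in KO neurons (0.59 ± 0.25, edgeR adjusted p of 0.474). For the interaction it was the small GTPase Rhoc (3.13 ± 1.89, edgeR adjusted p of 0.808), whose KO inhibitor libraries ran from 1.99 to 145 CPM.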

How the data were processed

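The authors deposited, for each library, a table of 36902 genes with a read count and a cRPKM value. Of these genes, 3342 were listed as NA in at least 1 table and were left out. The deposited counts are whole numbers with no scaling. The cRPKM column, also deposited by the authors, holds RPKM values with a correction that no label describes. The build was mm10, per the submitters' processing notes; the aligner, annotation and use of strand are not given in the sources used here. Counts were tested with edgeR 4.0.16 in R 4.3.3 (TMM, filterByExpr, robust quasi-likelihood F test, Benjamini-Hochberg adjustment over all genes tested, threshold 0.05). All 12 libraries entered 1 fit, and line sums a second. The biological coefficient of variation was 0.411 and 0.36. The procedure was run on simulated counts with a smaller coefficient of variation than these data and no library set apart. Its power at the spread seen here was therefore not tested. Alternatives were DESeq2 1.42.0, RLE and library-total scaling, no filter, only the groups compared, no robust estimation (interaction), the replicate block, leaving out each replicate and, chosen after seeing the data, leaving out 3 libraries. All 10 genes were to be named, with Daam1 and, of the other pathway genes, those called or, where none was, the 1 with the smallest unadjusted p; the remarks on Rock1, Rock2 and Mylk2 to Mylk4 were added for context. The genes and lists were chosen with earlier results of these data known. Vehicle and inhibitor libraries are paired by the cell line the labels give; deviations from the group means correlated between them with r from -0.723 to 0.574 over the 6 lines. The labels do not say whether the lines are separate clones or cultures, so p-values set each difference against the spread between these samples only. Log2 CPM used a prior count of 2.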

Additional observations from a re-analysis of the deposited data

How the results depend on the processing

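Over the alternatives run, the 60 log2 differences of the 10 genes were recomputed 1060 times: 997 kept their direction, 63 did not, none passed the threshold, and the lowest adjusted p was 0.0529. Those of Myh14 kept their direction in every comparison and alternative run, though its inhibitor difference in KO was 0.00028 without KO inhibitor library 3 and its interaction 0.027 without that and 2 other libraries. Over all genes, DESeq2 called 11 genes for KO against WT in vehicle, 18 in inhibitor and 88 over lines, and 0 for the inhibitor in either genotype or the interaction; without a filter on low counts edgeR called 2 over lines; none was one of the 10.

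With 1 library or line left out, some differences changed sign. For KO against WT in vehicle they ranged from -2.02 to 0.028 (Myh9), -0.24 to 0.0014 (Myh10), -2.04 to 0.015 (Myl12a) and -0.052 to 0.12 (Ppp1r12b). For KO against WT in inhibitor the ranges were -0.90 to 1.97 (Myh9), -0.47 to 0.19 (Myh10), -0.20 to 0.55 (Myl6), -1.63 to 1.76 (Myl9), -1.22 to 2.06 (Myl12a) and -0.52 to 0.10 (Ppp1r12b), and all 6 changed sign without KO inhibitor library 3. For inhibitor against vehicle in WT they were -0.93 to 1.41 (Myh9), -1.48 to 0.87 (Myl9), -0.66 to 1.67 (Myl12a), -0.32 to 0.45 (Mylk), -0.27 to 0.0065 (Ppp1r12a) and -0.15 to 0.060 (Ppp1r12b); in KO they were -0.52 to 0.14 (Myh10), -0.011 to 0.73 (Myl6) and -0.60 to 0.029 (Ppp1r12b). The interaction ranged from -0.38 to 0.28 (Myh10), -0.10 to 0.64 (Myl6) and -0.57 to 0.050 (Ppp1r12b). Over lines the ranges were -1.15 to 0.97 (Myh9), -0.24 to 0.018 (Myh10), -0.13 to 0.32 (Myl6), -2.38 to 0.73 (Myl9), -1.30 to 1.18 (Myl12a), -0.10 to 0.17 (Ppp1r12a) and -0.20 to 0.086 (Ppp1r12b).

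Leaving out the 3 libraries highest on the first component (KO inhibitor library 3, WT vehicle library 2 and WT inhibitor library 3), an alternative chosen after seeing the data, gave 2 called genes in vehicle and 1 in inhibitor for KO against WT. Values that changed sign were then, in vehicle, 0.035 (Myh9), 0.025 (Myl12a) and -0.047 (Ppp1r12b); in inhibitor, -0.091 (Myh9), 0.16 (Myh10), -0.083 (Myl6), -1.33 (Myl9), -0.40 (Myl12a) and 0.064 (Ppp1r12b); for the inhibitor in WT, 0.64 (Myh9) and 0.62 (Myl9); for the inhibitor in KO, 0.16 (Myh10) and 0.043 (Ppp1r12b); and in the interaction, -0.13 (Myh9), 0.20 (Myh10), -0.058 (Myl6), -0.20 (Myl9), -0.42 (Myl12a) and 0.11 (Ppp1r12b). Where an arm kept 2 libraries they were assumed to vary like the other groups. Library totals turned Myl12b for the inhibitor in KO to 0.013. The cause of these changes was not tested.

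With the cell line as replicate block, the inhibitor difference in WT was 0.33 for Myh9 and 0.051 for Myl9, and 0 genes were called. WT and KO lines share only a number (r of deviations from -0.649 to 0.795 over numbers and treatments). With that number as replicate block 0 genes were called, and over lines Myh9 was at -0.10 and Myl12a at -0.15. The block changed no other call. Myl9 and Mylk, at 12 and 36 counts in their lowest libraries, are limited by depth.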
